A study of Mus musculus with 6 samples.

Results

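Mitochondrial ribosomal protein genes were taken as all genes with a symbol of Mrpl or Mrps followed by a number and at most 1 letter from a to d. The rule found 77 of the 29385 genes in the tables, 48 with an Mrpl and 29 with an Mrps symbol. RNA came from mouse hearts in 3 groups of 2 libraries, all collected 12 months after newborn mice were given vehicle or AAV-hpCas13d. The first group had the Myh6 genotype RH/+ and vehicle, the second the genotype RH/RQ and vehicle, and the last RH/RQ and AAV-hpCas13d. Myh6 encodes the alpha myosin heavy chain of cardiomyocytes, and AAV-hpCas13d is a virus-delivered CRISPR nuclease of the RNA-cutting Cas13d family. Every group carried the RH allele, so there was no wild-type group, and the labels spell out neither the alleles nor the promoter, dose or target of the nuclease. Whether the 2 libraries of a group are separate animals is not stated in the sources used here, and the spread behind each p-value is that between these libraries, which may be technical.

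Mitochondria keep a ribosome of their own, built from ribosomal RNAs of the mitochondrial genome and from proteins that are encoded in the nucleus, made in the cytosol and imported. It translates the messenger RNAs of the mitochondrial genome, which encode core subunits of the respiratory chain and ATP synthase. The heart depends on this output for its energy supply, and inherited defects of several of these proteins, among them human MRPL3, MRPL44 and MRPS22, cause cardiomyopathy. By structure, 50 of the 77 genes encode proteins of the large subunit, which forms peptide bonds, and 26 proteins of the small subunit, which decodes the messenger RNA. Mrps30 and Mrps18a carry small-subunit symbols but their proteins sit in the large subunit. The protein of the remaining gene, Mrps36, was named as ribosomal but is now known as a subunit of the oxoglutarate dehydrogenase complex of the citric acid cycle. Of the 76 others, 46 have a bacterial homologue and 30 are specific to mitochondria.

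The promoters of the 5 genes with the most negative differences between RH/RQ and RH/+ vehicle hearts are shown because these genes lead the comparison described below. Each is the RefSeq window on GRCm38.p6 from 250 bases before to 50 bases after the annotated start, read 5′ to 3′ on the gene's strand. Capitals mark matches, on either strand, to letters bound by GABP and other ETS factors (CCGGAAG, or CTTCCGG on the other strand) or by YY1 (AAGATGGCG).
Mrps36: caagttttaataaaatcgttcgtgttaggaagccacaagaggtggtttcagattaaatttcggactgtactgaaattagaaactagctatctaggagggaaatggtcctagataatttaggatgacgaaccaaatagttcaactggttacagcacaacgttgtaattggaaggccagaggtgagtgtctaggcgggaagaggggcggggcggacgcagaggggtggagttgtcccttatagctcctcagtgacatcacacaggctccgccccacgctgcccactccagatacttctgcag
Mrpl51: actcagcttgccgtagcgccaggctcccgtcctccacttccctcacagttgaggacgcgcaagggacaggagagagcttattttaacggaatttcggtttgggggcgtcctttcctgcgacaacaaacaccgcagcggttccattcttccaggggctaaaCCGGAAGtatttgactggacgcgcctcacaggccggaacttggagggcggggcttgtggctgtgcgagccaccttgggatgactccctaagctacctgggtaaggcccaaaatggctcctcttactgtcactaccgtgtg
Mrpl52: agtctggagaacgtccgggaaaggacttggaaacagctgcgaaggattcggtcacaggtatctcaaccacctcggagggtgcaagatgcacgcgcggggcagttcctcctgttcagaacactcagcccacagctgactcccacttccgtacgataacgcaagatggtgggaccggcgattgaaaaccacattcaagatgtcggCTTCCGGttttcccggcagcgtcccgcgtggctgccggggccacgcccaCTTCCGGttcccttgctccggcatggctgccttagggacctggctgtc
Mrps21: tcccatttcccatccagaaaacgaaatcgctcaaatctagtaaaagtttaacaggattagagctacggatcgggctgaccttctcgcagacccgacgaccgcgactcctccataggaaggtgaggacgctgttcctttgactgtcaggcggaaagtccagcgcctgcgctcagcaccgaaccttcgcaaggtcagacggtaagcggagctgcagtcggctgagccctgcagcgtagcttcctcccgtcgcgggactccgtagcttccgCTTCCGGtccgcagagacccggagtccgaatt
Mrpl42: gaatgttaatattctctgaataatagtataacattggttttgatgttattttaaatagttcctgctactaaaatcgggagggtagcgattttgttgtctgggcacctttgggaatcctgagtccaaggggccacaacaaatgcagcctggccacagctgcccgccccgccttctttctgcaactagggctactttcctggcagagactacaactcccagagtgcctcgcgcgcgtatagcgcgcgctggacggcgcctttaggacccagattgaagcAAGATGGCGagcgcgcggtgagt
The windows lie at chr13:100744610-100744909 on the minus strand for Mrps36, chr6:125191950-125192249 on the plus strand for Mrpl51, chr14:54426659-54426958 on the plus strand for Mrpl52, chr3:95871465-95871764 on the minus strand for Mrps21 and chr10:95501900-95502199 on the minus strand for Mrpl42. The first base of the ETS match stood at -90 from the start in Mrpl51, at -47 and 3 in Mrpl52 and at 19 in Mrps21, and that of the YY1 match at 28 in Mrpl42, counting the start base as 1. Mrps36 held none of the letters searched. GABP, NRF1 and YY1 are transcription factors known to act on nuclear genes for mitochondrial proteins.

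RefSeq promoters matched 68 of the 77 genes. The ETS letters stood in the promoters of 25 of these genes (36.8%, against 12.9% of protein-coding genes), those of YY1 in 8 (11.8% against 2.14%) and those of NRF1 (CGCATGCGC) in 7 (10.3% against 2.61%). In all, 35 genes (51.5% against 16.6%) held at least 1 of the 3 motifs. TATAAA stood in 5 (7.35% against 14.8%), and TCAAGGTCA, bound by the estrogen-related receptors, in 0 (against 0.377%). A match describes the letters of the window and does not show binding. The ETS, YY1 and NRF1 letters each contain the pair CG. The median number of CG pairs was 21 in the promoters of the family and 13 in those of protein-coding genes. The part of this difference in the shares of matches was not tested. Between RH/RQ and RH/+ vehicle hearts, the median log2 fold change was -0.13 for the 25 genes with the ETS letters and -0.15 for the 43 without. It was -0.05 for the 8 genes with the YY1 letters and -0.15 for the 60 without, and -0.09 for the 7 with the NRF1 letters and -0.15 for the 61 without. These differences were not tested.

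All 77 genes were read in every library, with at least 298 reads, and all 77 passed the filter on low counts. Library totals ranged from 36269261 to 51017058 reads, and the genome of the mitochondrion took 17.2% to 22.4% of them. Levels are CPM, the reads of a gene scaled to the total of its library, per kilobase of annotated exon where genes are compared with each other. The mean level over 6 libraries spanned 3.10 to 113 CPM per kilobase, with a median of 18.4. Mrps23 (113 CPM per kilobase), Mrps21 (107.5), Mrpl34 (90.9), Mrpl42 (73.0) and Mrpl55 (72.1) were the highest, and Mrps30 (3.10), Mrps10 (3.25), Mrpl33 (4.09), Mrps25 (4.64) and Mrps22 (5.42) the lowest. Exon length is the union over annotated transcripts, so genes with long, rarely used exons come out low on this scale. The lettered genes Mrps18a, Mrps18b and Mrps18c, relatives of the bacterial S18 gene, differed in level, at 16.5, 5.98 and 8.18 CPM per kilobase. Summed over large-subunit genes, CPM was 2.36 to 2.47 times that summed over small-subunit genes in all 6 libraries.

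Libraries stood apart in ways that bear on each comparison. Xist, the RNA of the inactive X chromosome, was at 280 and 265 CPM in RH/+ vehicle, 0.274 and 0.0516 CPM in RH/RQ vehicle, and 299 and 326 CPM in treated RH/RQ hearts. The Y-linked gene Ddx3y was at 85.2 CPM in both RH/RQ vehicle libraries and at 0 reads in the other 4. The sex-linked pattern therefore cannot be told apart from genotype in the comparison of vehicle groups, nor from treatment within RH/RQ, while treated RH/RQ and RH/+ hearts had the same pattern. None of the 77 genes lies on X or Y. The treated libraries also differed from each other: replicate 1 held the highest value of the 6 libraries for 43 of the 77 genes, and replicate 2 for 1.

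Summed over the 77 genes, expression was 4467 and 4263 CPM in RH/+ vehicle, 3962 and 3825 CPM in RH/RQ vehicle, and 4549 and 3985 CPM in treated RH/RQ hearts. Both RH/RQ vehicle libraries lay below the other 4, and the 2 treated libraries were the highest and the third lowest. By group mean, RH/RQ vehicle was the lowest group for 63 of the 77 genes, against 34.5% of all genes tested, and the highest for 2, against 31.6%. For 21 genes both RH/RQ vehicle libraries lay below all 4 others, against 10.8% of all genes.

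**Figure D1:**
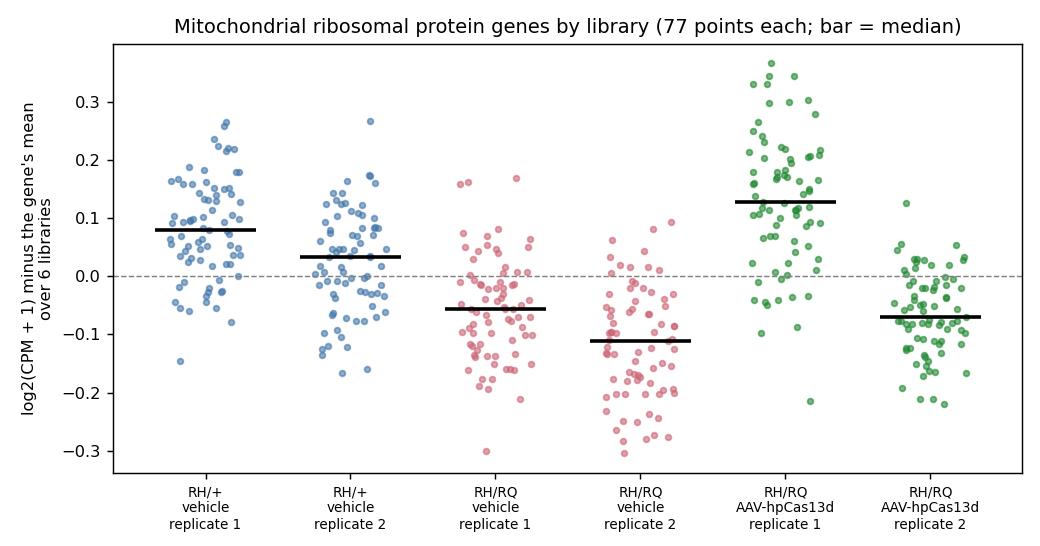
Each point is 1 of the 77 genes in 1 library, as log2(CPM + 1) minus the mean of that gene over the 6 libraries, and bars are medians. The medians were 0.08 and 0.03 in RH/+ vehicle, -0.06 and -0.11 in RH/RQ vehicle, and 0.13 and -0.07 in treated RH/RQ hearts.

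The comparison of RH/RQ with RH/+ vehicle hearts sets the 2 genotypes side by side without the nuclease. Nearly the whole family lay slightly lower in RH/RQ vehicle hearts, with a log2 fold change below 0 for 71 of the 77 genes. However, only 1 gene, Mrps36, passed the test, and 0 were called higher. The protein of Mrps36 is the oxoglutarate dehydrogenase subunit, and of the other 76 genes 0 were called. Calls are at an adjusted p under 0.05 from limma with Benjamini-Hochberg adjustment over the 16804 genes tested, of which 1.51% were called lower and 3.48% higher. On the recovered reads edgeR called 4 of the 77 genes lower (2.34% of all genes) and DESeq2 8 (3.12%), among them Mrps36, Mrpl51, Mrpl52 and Mrps21. They called 0 of the family higher, against 3.12% and 3.31% of all genes. The median log2 fold change was -0.15, against 0.04 over all genes tested, and 42.2% of all genes were below 0 and 57.8% above. At an unadjusted p under 0.05, 17 of the 77 genes were lower (5.78% of all genes) and 0 higher (11.3%). With TMM factors the median of the family was -0.20, where that of all genes was -0.0002. Dropping the first or the second RH/+ library gave family medians of -0.11 and -0.17, against 0.03 and 0.05 over all genes. Dropping the first or the second RH/RQ library gave -0.19 and -0.11, against 0.004 and 0.07. Both RH/RQ libraries lay below both RH/+ libraries for 44 genes, against 18.5% of all genes, and above for 2, against 30.8%. The genes share libraries and scaling, so these counts are not independent observations. In this and each other comparison of bulk tissue, fewer cells of a type and less RNA per cell cannot be told apart.

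Mrps36, on chromosome 13 from 100735955 to 100744659 (GRCm38, minus strand), was at 72.7 and 66.5 CPM in RH/+ vehicle, 54.5 and 55.1 CPM in RH/RQ vehicle, and 65.4 and 61.4 CPM in treated RH/RQ hearts. The RH/RQ vehicle libraries were the lowest, and neither of the other groups overlapped them. The log2 fold change between the vehicle groups was -0.34 (SE 0.097, adjusted p = 0.0444 in limma), a ratio of group means of 0.788. The call was lost when any 1 of these 4 libraries was left out (adjusted p 0.109 to 0.467), with CPM over nuclear genes (adjusted p = 0.0606), with no filter on low genes (adjusted p = 0.170) and in a test against a fold of 1.2. Its 2 annotated pseudogenes held at most 0.276 CPM in any library.

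Mrpl51 and Mrpl52, mitochondria-specific proteins of the large subunit, were just outside the threshold. Mrpl51 was at 177 and 175 CPM in RH/+ vehicle, 142 and 143 CPM in RH/RQ vehicle, and 170.5 and 159 CPM in treated RH/RQ hearts. Its vehicle groups stood apart by far more than the difference within either group, with a log2 fold change of -0.30 (SE 0.089, adjusted p = 0.0518 in limma). Mrpl52 was at 23.5 and 24.4 CPM in RH/+ vehicle, 17.4 and 17.7 CPM in RH/RQ vehicle, and 27.8 and 20.9 CPM in treated RH/RQ hearts. It had the most negative difference of the family between the vehicle groups, at -0.43 on the log2 scale (SE 0.13, adjusted p = 0.0601 in limma, 95% interval -0.70 to -0.16).

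Among small-subunit genes the most negative difference was that of Mrps21, the homologue of bacterial S21. It was at 83.7 and 85.2 CPM in RH/+ vehicle, 71.8 and 65.6 CPM in RH/RQ vehicle, and 92.3 and 78.1 CPM in treated RH/RQ hearts, so the RH/RQ vehicle libraries lay below all others. The log2 fold change between the vehicle groups was -0.30 (adjusted p = 0.1 in limma). Mrpl42, the gene with the most reads of the family, was at 315 and 276 CPM in RH/+ vehicle, 249 and 232 CPM in RH/RQ vehicle, and 290 and 251 CPM in treated RH/RQ hearts. The vehicle groups did not overlap, but the 2 RH/+ libraries differed from each other by more than the nearest RH/+ and RH/RQ libraries did (log2 fold change -0.30, adjusted p = 0.0983).

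**Figure D2:**
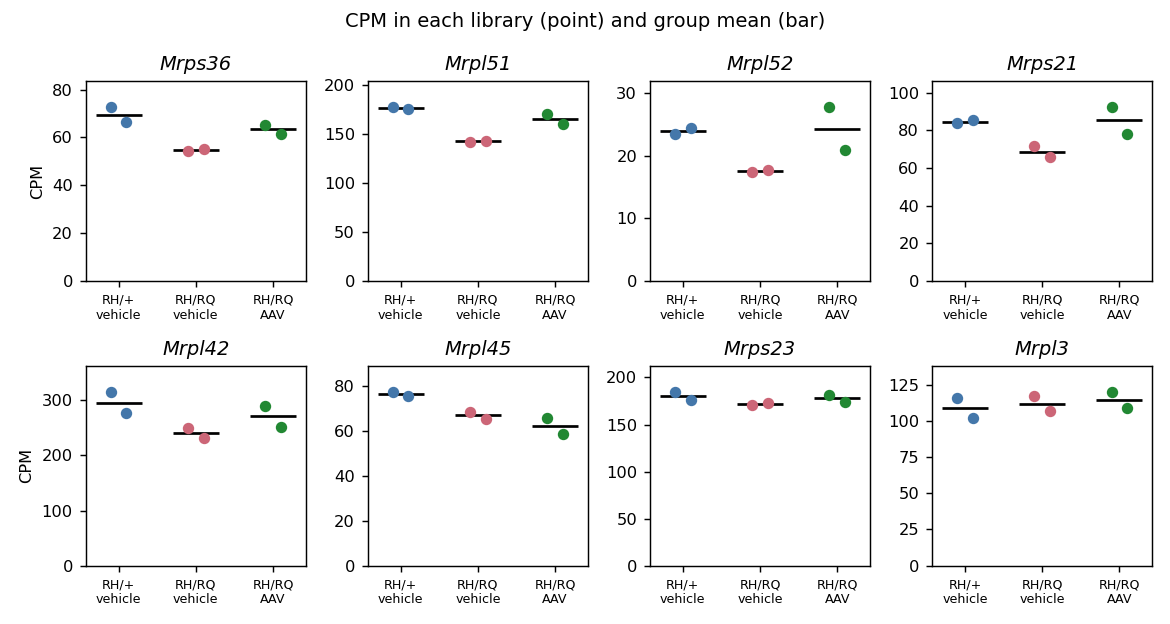
CPM of 8 genes in each of the 6 libraries (points) with group means (bars), on axes that start at 0. In Mrps36, Mrpl51, Mrpl52, Mrps21 and Mrpl42 both RH/RQ vehicle libraries lie below the other 4, in Mrpl45 the treated mean is the lowest, and in Mrpl3 the 3 groups overlap.

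By subunit and origin the medians were close to each other, and the differences between them were not tested. The median log2 fold change between the vehicle groups was -0.15 for the 50 large-subunit genes (46 below 0) and -0.14 for the 26 small-subunit genes (24 below 0). It was -0.15 for the 46 genes with a bacterial homologue and -0.13 for the 30 mitochondria-specific ones. The genes above 0 were Mrps10 (0.11), Mrps18b (0.09), Mrpl3 (0.04), Mrpl43 (0.02), Mrpl35 (0.01) and Mrps30 (0.00), none of them called. This split moved with the scaling. With TMM or RLE factors, in edgeR and in DESeq2, 75 of the 77 genes were below 0 and 2 above. With CPM over nuclear genes 64 were below and 13 above. In the deposited table of the authors, made with DESeq2 columns, 9 of the 77 genes had an adjusted p under 0.05 in this comparison, all lower, against 3.63% of the genes with an adjusted p there: Mrpl51, Mrpl42, Mrps36, Mrps21, Mrpl52, Mrps24, Mrps35, Mrpl49 and Mrpl14. The authors' deposited table gave -0.35 for Mrpl51 (adjusted p = 0.00149) and -0.50 for Mrpl52 (adjusted p = 0.00606). Of the 427 genes on the authors' deposited short list, with a change of over 1.5-fold, 0 were of the family.

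Genes whose proteins have a known place in the ribosome were not called between the vehicle groups. Mrpl12, of the stalk that binds translation factors, had 84.5 and 90.9 CPM in RH/+ hearts against 73.7 and 82.6 CPM in RH/RQ vehicle hearts, with no overlap (log2 fold change -0.17, 95% interval -0.38 to 0.05). Mrps12, of the decoding centre, differed by -0.05, and Mrpl58, which releases peptides as a hydrolase, by -0.02, and the groups of both overlapped. The cardiomyopathy genes gave -0.17 for Mrpl44 (95% interval -0.38 to 0.05), -0.18 for Mrps22 (-0.44 to 0.09) and 0.04 for Mrpl3 (-0.16 to 0.24), and none was called. Mrpl3, near the peptidyl transferase centre, was at 116 and 102, 117 and 107, and 120.0 and 109 CPM in RH/+ vehicle, RH/RQ vehicle and treated hearts, and its groups overlapped throughout.

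**Figure D3:**
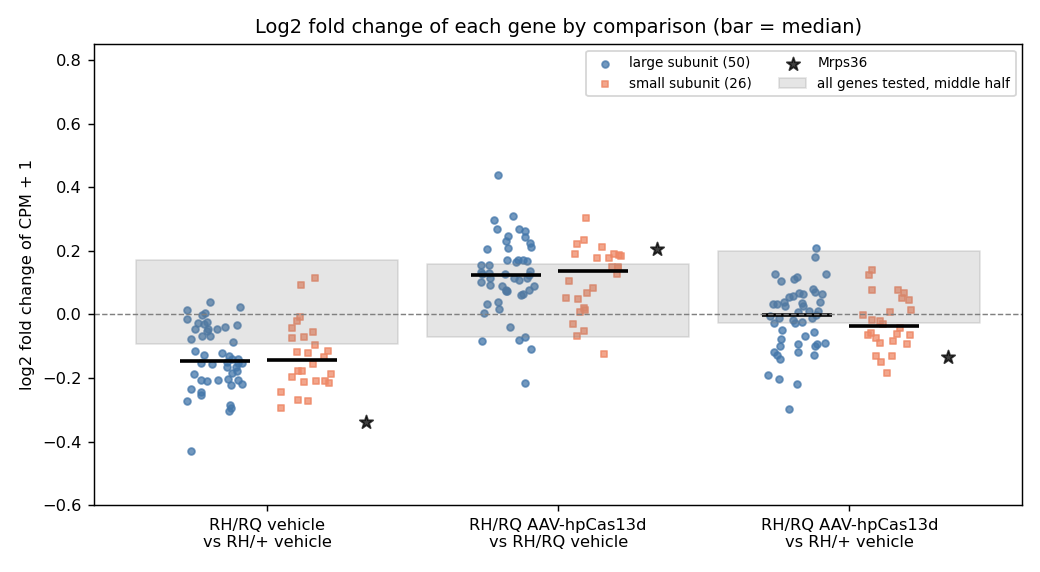
Log2 fold change of each of the 77 genes in each comparison, by subunit, with medians as bars, Mrps36 as a star, and the range between the quartiles of all 16804 genes tested as a grey box. The medians over the family were -0.15, 0.13 and -0.02 from left to right.

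Treated RH/RQ hearts were compared with RH/RQ vehicle hearts to ask what went with the nuclease. The 77 genes lay mostly above the vehicle level, with 67 above 0 against 60.5% of all genes and 10 below against 39.4%, but 0 were called in either direction by limma (1.22% of all genes were called higher and 0.827% lower). edgeR and DESeq2 also called 0, against 2.27% and 2.49% of all genes in either direction. The median log2 fold change was 0.13, against 0.04 over all genes. It was 0.07 with TMM or RLE factors, in edgeR and in DESeq2, and 0.06 with CPM over nuclear genes, with 57 or 58 genes above 0. At an unadjusted p under 0.05, 11 were higher (8.56% of all genes) and 0 lower (3.92%). Both treated libraries lay above both vehicle libraries for 26 of the 77 genes, against 26.2% of all genes, and below for 4, against 14.4%. This comparison shares the RH/RQ vehicle libraries with the comparison before it, so a gene low in these libraries lies lower in one and higher in the other.

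The treated values depended on the library. The median over the family was 0.03 without treated replicate 1, against 0.02 over all genes, and 0.23 without treated replicate 2, against 0.07. Without replicate 2, 8 genes were called higher, against 2.81% of all genes tested, namely Mrpl14, Mrpl23, Mrpl4, Mrpl52, Mrpl57, Mrps18a, Mrps21 and Mrps28, and without replicate 1, 0 were. Mrpl52 was the most positive, at 0.44 (SE 0.13, adjusted p = 0.0945 in limma, 95% interval 0.17 to 0.71). Both treated libraries of Mrpl52 lay above both vehicle libraries, but replicate 1 stood well above replicate 2. Mrpl57, of the large subunit, followed at 0.31 (adjusted p = 0.271), with 27.6 and 27.4 CPM in vehicle and 39.6 and 29.7 CPM in treated hearts, and then Mrps21 at 0.30 (adjusted p = 0.151).

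Genes below the vehicle level in treated hearts were few. Mrpl1, of the stalk by which used transfer RNA leaves, was at 39.5 and 34.7 CPM in RH/RQ vehicle and 30.2 and 33.4 CPM in treated hearts, with 39.5 and 34.8 CPM in RH/+ vehicle. Its treated libraries were the lowest of the 6 (log2 fold change -0.22, adjusted p = 0.447 in limma). Mrps18b (-0.12) and Mrpl45 (-0.11) came next and were not called.

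Treated RH/RQ hearts were also compared with RH/+ vehicle hearts, which had the same sex-linked pattern. With CPM scaled to the library total, 44 genes were below 0 (30.3% of all genes) and 33 above (69.7%), with a median log2 fold change of -0.02 against 0.08 over all genes, and 0 were called (2.33% of all genes were called higher and 0.53% lower). At an unadjusted p under 0.05, 1 was lower, Mrpl45 (2.65% of all genes), and 0 were higher (12.5%). Both treated libraries lay above both RH/+ libraries for 4 genes, against 35.0% of all genes, and below for 12, against 9.66%. The 95% intervals of 76 of the 77 genes held 0, and over the family they ran from -0.50 to 0.45. The split moved with the scaling. With TMM factors, in edgeR and in DESeq2, 68 genes were below 0 and 9 above, and with RLE factors 69 and 8. Under these settings 12 to 14 of the 77 were past an unadjusted p of 0.05, in either direction. No share of all genes is at hand to set beside this count, so it does not show whether the family stands out. The median of the family was -0.12 with TMM and with RLE factors, where that of all genes was 0.00. It was -0.11 without treated replicate 1, against 0.06 over all genes, and 0.10 without treated replicate 2, against 0.11.

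Mrpl45, whose protein anchors the ribosome to the inner membrane at the tunnel exit, was 1 of 8 genes for which the group mean was lowest in treated hearts, then RH/RQ vehicle and then RH/+ vehicle. RH/RQ vehicle was followed by treated hearts and then RH/+ for 32 genes, and by RH/+ and then treated hearts for 31. The share of all genes with each order was not taken, so these counts do not show whether the family stands out. Mrpl45 was at 77.5 and 75.6 CPM in RH/+ vehicle, 68.6 and 65.6 CPM in RH/RQ vehicle, and 66.0 and 58.5 CPM in treated RH/RQ hearts. Both RH/RQ groups lay below RH/+ and overlapped each other. Treated against RH/+ hearts, the log2 fold change was -0.30 (SE 0.097, adjusted p = 0.116 in limma, 95% interval -0.50 to -0.09). Mrpl45 was called lower in this comparison by edgeR, by DESeq2 and by limma with TMM or RLE factors, against 0.97%, 1.24% and, with either factors, 0.976% of all genes. The authors' deposited table gave it -0.41 with an adjusted p of 0.0130, and in that table no other gene of the family was past 0.05, against 1.04% of its genes called lower. Mrps18a (0.21), Mrpl57 (0.18) and Mrps11 (0.14) were the most positive, and Mrpl1 (-0.22) and Mrpl19 (-0.20) the next most negative, all uncalled.

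Other parts of the pathway were read from lists. The 5 mitochondrial ribosomal proteins with other symbols, Dap3, Ptcd3, Chchd1, Aurkaip1 and Gadd45gip1, were all below 0 between the vehicle groups, with a median of -0.17 and 0 called. Dap3, a GTP-binding small-subunit protein, was at 102 and 98.9 CPM in RH/+ vehicle, 91.4 and 86.7 CPM in RH/RQ vehicle, and 103 and 101 CPM in treated hearts, the RH/RQ vehicle libraries being the lowest. Of 26 factors that assemble the ribosome, 14 tested translation factors and 8 genes for transcription and DNA maintenance, 0 were called in any comparison and at most 2 of a list passed an unadjusted p of 0.05 in one, with medians of -0.08, -0.05 and -0.01 between the vehicle groups. Of 20 aminoacyl-tRNA synthetases of mitochondria, 1 was called, Lars2, which loads leucine. Lars2 was lower in treated than in RH/+ hearts (796 and 574 CPM in RH/+, 511 and 281 CPM in treated, log2 fold change -0.83, adjusted p = 0.00925 in limma). Its log2 fold change was -0.51 between the vehicle groups and -0.33 within RH/RQ, neither of them called.

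The RNAs that this ribosome holds and reads come from the mitochondrial genome. The ribosomal RNA mt.Rnr2 was at 4085 and 4663 CPM in RH/+ vehicle, 4026 and 6718 CPM in RH/RQ vehicle, and 3248 and 3927 CPM in treated hearts, with wide and overlapping vehicle values. Neither it nor mt.Rnr1 was called, and the libraries were made from RNA held on poly-T beads. For these 2 RNAs both treated libraries lay below both RH/RQ vehicle libraries (14.4% of all genes), with log2 fold changes of -0.54 and -0.52. The treated libraries also lay below both RH/+ libraries (9.66% of all genes), with a median of -0.29. The 13 messenger RNAs of the mitochondrial genome had a median of 0.16 between the vehicle groups, with mt.Nd4l called higher (0.85, adjusted p = 0.000272 in limma). Within RH/RQ all 13 were below 0 in treated hearts, with a median of -0.27, and mt.Co3 (-0.87) and mt.Nd4l (-0.54) were called lower. In treated against RH/+ hearts the median was -0.12, and mt.Co3 was called lower.

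The 76 nuclear genes of the respiratory chain and ATP synthase, whose products join those made by this ribosome, had medians of -0.25, 0.19 and -0.06 in the 3 comparisons in the order given. Atp5k (-0.46), Cox7a1 (-0.45) and Ndufa5 (-0.36) were called lower between the vehicle groups, and Atp5k (0.56) and Atp5g2 (0.46) higher in treated than in vehicle RH/RQ hearts. The 81 tested cytosolic ribosomal proteins had medians of -0.09, 0.26 and 0.17. Rpl3l, the muscle form of Rpl3, and Rps29 were called lower between the vehicle groups, and Rps29, Rps27 and Rpl36 higher in treated RH/RQ hearts. Of 9 regulators of mitochondrial biogenesis, 2 were called, both between the vehicle groups. Ppargc1a, the coactivator PGC-1 alpha, was lower, at 133 and 120 CPM against 94.3 and 94.0 CPM (log2 fold change -0.42, adjusted p = 0.0127 in limma). Myc was higher, at 2.23 and 2.53 CPM against 4.35 and 4.33 CPM (0.66, adjusted p = 0.0286 in limma). The lists differ in level, and the differences between lists were not tested.

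**Figure D4:**
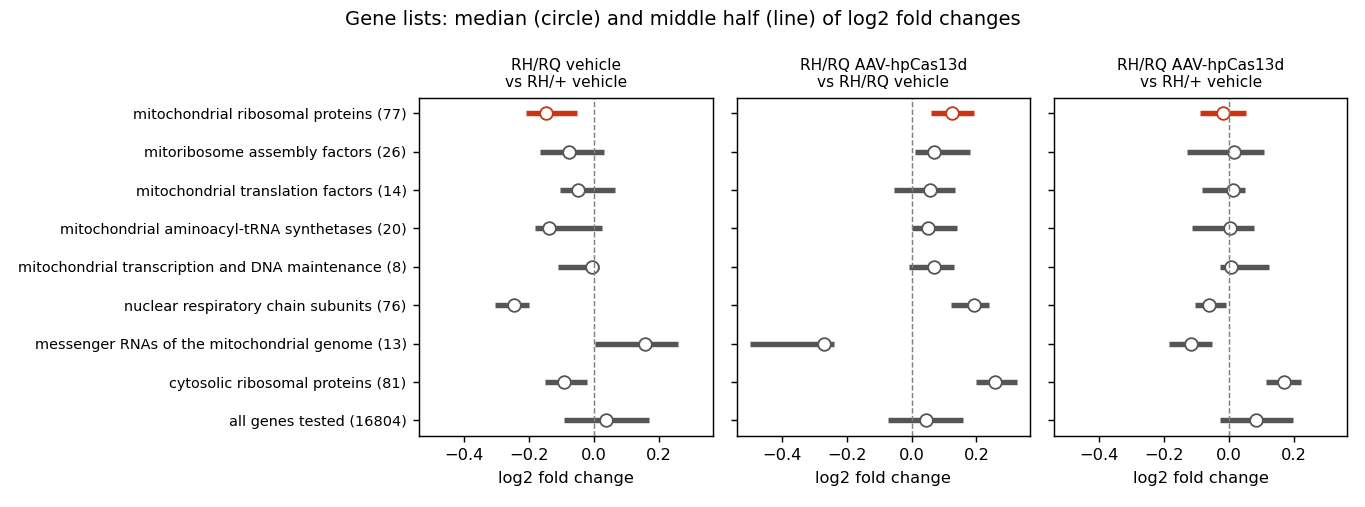
Median log2 fold change (circle) with the range between quartiles (line) of the 77 genes, of related gene lists and of all genes tested, in the 3 comparisons. The family lies at -0.15, 0.13 and -0.02, and the nuclear respiratory chain genes at -0.25, 0.19 and -0.06.

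Some markers of cell types differed between the groups. Summed cardiomyocyte markers (8 genes, none called) were at 60714 and 65082 CPM in RH/+ vehicle, 54412 and 57672 CPM in RH/RQ vehicle, and 58557 and 58242 CPM in treated hearts, the RH/RQ vehicle libraries being the lowest. Fibroblast markers (6 genes) were at 822 and 882, 1428 and 1329, and 1406 and 1206 CPM in the same order, with 4 called higher between the vehicle groups and 4 in treated against RH/+ hearts. Of these markers Col1a1 (-1.17) and Col1a2 (-0.78) were called lower within RH/RQ. The other 4 were above 0 there and not called, and the median of the 6 was 0.07. Macrophage markers (6 genes) were at 132 and 133, 189 and 181, and 165 and 144 CPM, with 4 called higher between the vehicle groups. Summed red cell markers ran from 149 to 322 CPM and were lowest in the treated libraries, with 2 of 4 called lower within RH/RQ and 3 in treated against RH/+ hearts. Of 4 smooth muscle and pericyte markers, Acta2 was at 242 and 191 CPM in RH/+ vehicle, 71.3 and 98.0 CPM in RH/RQ vehicle, and 73.5 and 76.2 CPM in treated hearts. It was called lower than in RH/+ in both RH/RQ groups (log2 fold changes -1.35 and -1.51). The other markers of this list were not called in any comparison and did not follow Acta2. Between the vehicle groups 2 of the 4 were above 0 and 2 below, with a median of 0.01. No gene of the cardiomyocyte, fibroblast or macrophage list was at 0 in any library. The part of these shifts in the values of the family was not tested.

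The size of difference that the design could call limits these statements. At the levels of the family the smallest called log2 fold changes of any gene were 0.31, 0.35 and 0.34 in size in the 3 comparisons, and the standard errors of the 77 genes ran from 0.089 to 0.15. Counting is uncertain where genes overlap: 32 of the 77 share exon bases with another annotated gene, 27 of them with one on the opposite strand, and the strand setting of the counting is not given in the sources used here. The share was largest for Mrps25 with Nr2c2 (69.8% of its exon bases) and Mrps34 with Mapk8ip3 (63.4%). Mrps36, Mrpl52, Mrps21, Mrpl42 and Mrpl45 share none.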

How the data were processed

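Poly(A) RNA from 1 µg of total RNA was sequenced for each library, per the labels' protocols. The submitters' processing notes list HISAT2, HTSeq, DESeq2 and mm10 without roles; their versions, the annotation and the strand setting are not given in the sources used here. The authors deposited 3 full tables of CPM for 4 libraries each, scaled to the library total. Per the file headers, each deposited table adds the mean signal of a gene (counts over size factors), its log2 fold change, a test score and p-values. Every deposited CPM was a whole multiple of 1 read (100% of values, tolerance 0.001), so reads were recovered, and 0 sample columns were left unused. A gene missing from both tables of a library was taken as 0 reads there, which touched none of the 77 genes.

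The test was limma 3.58.1 with a trend (R 4.3.3) on log2(CPM + 1), in 1 fit of 3 group means over 6 libraries, two-sided, for the 16804 genes kept by filterByExpr at a minimum count of 10. Adding 1 CPM makes fold changes of low genes come out too small. edgeR 4.0.16 and DESeq2 1.42.0 on the recovered reads were alternatives. The fits were also run on simulated data with a common spread for all genes, whose outcome is not given and lends no support here. Replicates differed by more than sampling noise (mean chi-square per gene of 12.4, 16.6 and 23.7). The members and lists were chosen with earlier results of these data known. Named genes are those called, the 3 highest and 3 lowest by log2 fold change in each comparison, the 5 highest and 5 lowest per kilobase, and genes of known role; others were named after their values were seen. Coordinates and exon lengths are those of GENCODE M21 on GRCm38. Promoters are from RefSeq. Figures were drawn with matplotlib 3.10.9.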

Additional observations from a re-analysis of the deposited data

How the results depend on the processing

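Of the 77 genes, 1, Mrps36, was lower in RH/RQ than in RH/+ vehicle hearts as reported, against 1.51% of all genes. Calls over all genes in either direction, 838 as reported, were 931 with TMM factors, 920 with RLE factors and 1158 with the 4 libraries alone. They were 918 in edgeR, 954 in DESeq2, 820 with a filter at a mean of 1 CPM and 1058 with CPM over nuclear genes. With no filter on low genes they were 57, and against a fold of 1.2 they were 197. Those numbers take both directions, while the counts for the family that follow are of genes called lower. Among the alternatives, the share of all genes called lower was taken for edgeR (2.34%) and DESeq2 (3.12%) only. The other counts do not show whether the family stands out. The count for the family was 5 with TMM factors, RLE factors or the 4 libraries of the comparison alone, 4 in edgeR and 8 in DESeq2. It was 2 with the filter at a mean of 1 CPM. With CPM over nuclear genes, no filter on low genes or a test against a fold of 1.2 it was 0. Leaving out 1 library gave 0 to 5, with 0 when the library was one of the 4 compared. The count of genes higher in treated than in vehicle RH/RQ hearts, 0 as reported, ran from 0 to 8, the 8 without treated replicate 2. Lower in treated than in RH/+ hearts, 0 as reported, the count was 1, Mrpl45, with TMM factors, RLE factors, edgeR and DESeq2. The other 3 counts, and pseudocounts of 0.1 and 5 or leaving out genes on X and Y, changed no count. The cause was not tested. With the replicate number as a block, the counts were 5 lower between the vehicle groups and 1 higher, Mrpl52, within RH/RQ. Over all genes, 1173 and 567 were then called in either direction. Replicate numbers follow accession order and go with the first digit of the sample names, which no label explains. The deviations of same-numbered libraries correlated at 0.13, -0.0205 and 0.0742, so the numbers are not taken to pair libraries. The median over the family between the vehicle groups stayed below 0 under each alternative, from -0.20 to -0.11, and within RH/RQ above 0, from 0.03 to 0.23. The lowest of these within RH/RQ, without treated replicate 1, was near the 0.02 of all genes. Of the log2 fold changes of named genes of the family, 0 called values changed sign, but only 1 was called, that of Mrps36. Uncalled values did change sign, such as that of Mrpl3 between the vehicle groups, which ran from -0.05 to 0.13. With 2 libraries a group, leaving out 1 leaves a lone sample, assumed to vary like the rest.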

Other observations

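Mrpl46, of the large subunit, and Mrps11, of the small subunit, lie head to head on chromosome 7 and share 173 exon bases on opposite strands (12.2% of the exon bases of Mrpl46 and 8.0% of those of Mrps11). Mrpl46 was at 39.6 and 38.0 CPM in RH/+ vehicle, 35.3 and 34.9 CPM in RH/RQ vehicle, and 42.2 and 33.2 CPM in treated hearts. Mrps11 was at 16.6 and 14.3, 15.5 and 14.3, and 20.3 and 14.3 CPM in the same order. Treated replicate 1 was the highest library for both, and neither was called in any comparison. The pair was chosen after the values were seen.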
